A study of Danio rerio with 6 samples.

Results

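The Slit ligands and their Robo receptors were examined in zebrafish that lack part of *ikzf1*, the gene for the haematopoietic transcription factor Ikaros. The members are *robo1*, *robo2*, *robo3*, *robo4*, *slit1a*, *slit1b*, *slit2* and *slit3*, found in the raw count table by matching symbols to Ensembl gene IDs. All 8 rows were found among 32105 genes, those of *slit1a* and *slit1b* under the shared human symbol SLIT1. The pathway term for Slit and Robo in axon guidance is one that the study names for genes higher in these same mutants, so a rise of these genes is not independent evidence. The libraries are RNA-seq libraries of 3 fish homozygous for the fr105 allele of *ikzf1* (mutant replicates 1 to 3) and of 3 wild-type siblings (wild-type replicates 4 to 6), and the labels give neither group another allele or a treatment. Per the methods each library is 1 individual fish, and the labels give an age of 5 days post fertilisation, whole body as tissue and a mixture of wild-type strains as background for both groups. fr105 is a single CRISPR/Cas9 deletion allele within *ikzf1*. The paper reports that the deletion shifts the reading frame to a premature stop, so the truncated protein keeps only the first zinc finger. It lacks the other N-terminal zinc fingers, which bind DNA, and the C-terminal ones, which serve protein interactions.

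Slit proteins are large secreted ligands, and Robo proteins are single-pass receptors of the immunoglobulin superfamily. Binding of Slit to Robo is strengthened by heparan sulfate on the cell surface, and the receptor tail then recruits regulators of actin, which turns growing axons and migrating cells away from the Slit source. The system is best known from the midline of the nervous system, and also acts in blood vessels, in leukocyte migration and in the niche of blood stem cells.

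The total count was between 34759504 and 38383935 in the mutant libraries and between 38177112 and 39404324 in the wild-type libraries. Among low counts of 1 to 4, 78% to 79.9% per library were even, so most low counts rest on fewer RNA fragments than their number says. The gene-level count of *ikzf1* (ENSDARG00000013539) was 53145, 44700 and 29104 in the mutants against 8746, 6776 and 10579 in wild type. In the quasi-likelihood test of edgeR, with p-values adjusted by the Benjamini-Hochberg method as throughout, its log2 fold change was 2.37 (standard error 0.23, edgeR adjusted p = 0.000362). A gene-level count includes exons outside the deletion, so this value is no check of the genotype labels. The labelled tissue was not borne out by its markers. Of 12 rows matched to skeletal muscle genes, 6 had at most 3 counts in every library, 4 of these being at 0 throughout. The only muscle row that passed the filter, 1 of *TNNT3* (ENSDARG00000068457), had 83 to 227 counts per library. By comparison, 7 neutrophil genes summed to at least 22758 CPM (counts scaled to the library total) and 7 erythrocyte genes to at least 12012 CPM in every library. The label is kept as a label, and in such bulk samples fewer cells of a type and less RNA per cell cannot be told apart.

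*slit3* (ENSDARG00000034268), a secreted Slit ligand, had 532, 384 and 480 counts in mutant replicates 1, 2 and 3. In wild-type replicates 4, 5 and 6 it had 81, 86 and 107 counts. All mutants were far above all wild types, and the groups were well separated. After scaling by the TMM method this was 12.8 ± 1.81 CPM in mutants (SD, n = 3) and 2.34 ± 0.291 CPM in wild type (SD, n = 3), a 5.45-fold difference. Its log2 fold change was 2.45 (standard error 0.18, 95% interval 2.04 to 2.86, edgeR adjusted p = 9.04e-05). *slit3* had the smallest relative error of the 8 genes and kept its call with each library left out, when the log2 fold change lay between 2.38 and 2.56. A two-sided exact permutation test gave p = 0.1, the smallest that 3 against 3 libraries allow. Here and below, edgeR p-values weigh the difference between the groups against the spread between these libraries. That spread is estimated for each gene with information shared across all genes tested. Permutation p-values place the difference among all regroupings of these libraries.

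The other Slit genes were near the limit of detection. *slit2* (ENSDARG00000004246), the Slit best studied as a repellent for axons and a guide for vessels, had 12, 8 and 4 counts in the mutants against 12, 12 and 6 in wild type. The groups overlapped, and the log2 fold change of *slit2* was -0.24 with a 95% interval from -1.53 to 1.06 (edgeR adjusted p = 0.794). That interval excludes neither a halving nor a doubling of *slit2*.

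The name table gives the human symbol SLIT1 to 2 IDs, which are the zebrafish copies *slit1a* and *slit1b*, without saying which is which, and they are named here by ID. ENSDARG00000044954 had 12, 12 and 6 counts in the mutants against 0, 5 and 4 in wild type. Every mutant was above every wild type by at least 1 count, and the two-sided exact permutation test gave p = 0.1. ENSDARG00000099446 had 6, 11 and 0 counts in the mutants against 20, 6 and 6 in wild type, and its groups overlapped (two-sided exact permutation test, p = 0.6). Both rows failed edgeR's low-count filter. In a fit with no filter their log2 fold changes were 1.80 (standard error 0.96, edgeR adjusted p = 0.266) and -0.81 (standard error 1.00, edgeR adjusted p = 0.633), with intervals of -0.32 to 3.92 and -3.03 to 1.42. Their sequences were not compared, so whether they share reads that the counting could assign to neither or to either is not known.

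Summed over the 4 Slit genes, the libraries held 562, 415 and 490 counts in mutants against 113, 109 and 123 in wild type, or 13.4 ± 1.66 and 2.95 ± 0.119 CPM (SD, n = 3 each). Without *slit3* the sums were 30, 31 and 10 counts in mutants against 32, 23 and 16 in wild type, which overlap. The difference in the Slit sum therefore lay in *slit3*.

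**Figure D1:**
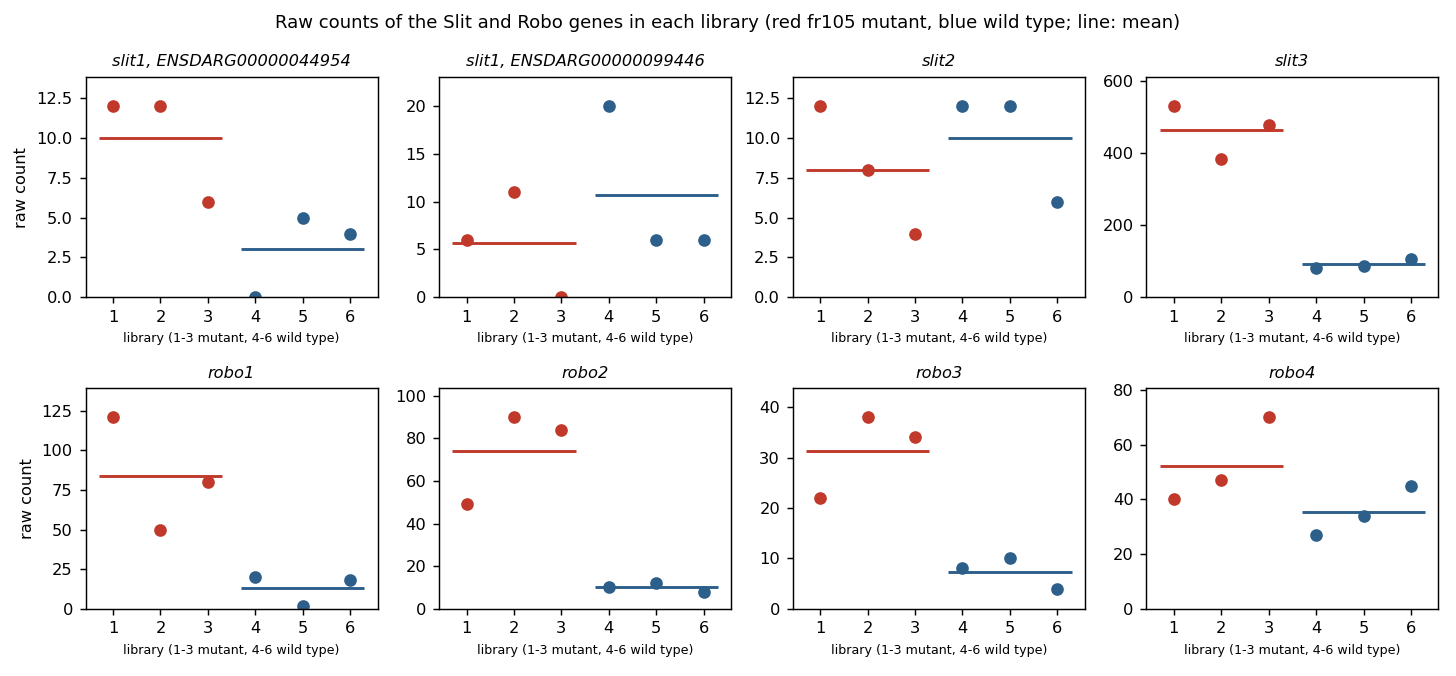
Raw count (vertical axis, a scale of its own in each panel, starting at 0) of each Slit and Robo gene in each of the 6 libraries (horizontal axis; 1 to 3 fr105 mutants in red, 4 to 6 wild type in blue), with a line at each group's mean. The mutant points of *slit3* (384 to 532) and of *robo1*, *robo2* and *robo3* lie above all wild-type points, whereas those of *slit2*, *robo4* and 1 of the *slit1* rows overlap.

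*robo1* (ENSDARG00000026784), one of the main Slit receptors of neurons, had 121, 50 and 80 counts in the mutants. In wild type it had 20, 2 and 18 counts. The groups were apart, but both were uneven: mutant replicate 1 was more than double mutant replicate 2, and wild-type replicate 5 was almost empty. The level was 2.28 ± 0.885 CPM in mutants against 0.341 ± 0.253 CPM in wild type (SD, n = 3 each), and the log2 fold change was 2.73 (standard error 0.64, 95% interval 1.25 to 4.21, edgeR adjusted p = 0.022). The call on *robo1* was lost without mutant replicate 1 (log2 fold change 2.42, edgeR adjusted p = 0.0891) and without mutant replicate 3 (2.73, edgeR adjusted p = 0.0619).

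*robo2* (ENSDARG00000014891), the other main receptor and the gene next to *robo1* in the GRCz12tu assembly, had 49, 90 and 84 counts in the mutants against 10, 12 and 8 in wild type. Wild-type libraries were close to each other, and the lowest mutant, replicate 1, was still well above them. Mutant replicate 1 was thus the highest mutant for *robo1* and the lowest for *robo2*. The level of *robo2* was 2.06 ± 0.679 CPM in mutants against 0.257 ± 0.0561 CPM in wild type (SD, n = 3 each), a 7.92-fold difference and the largest log2 fold change among the 8 genes at 2.99 (standard error 0.40, 95% interval 2.06 to 3.91, edgeR adjusted p = 0.00187). Its interval overlapped those of *robo1*, *robo3* and *slit3*. With each library left out, the log2 fold change of *robo2* stayed between 2.83 and 3.24 and the call was kept.

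*robo3* (ENSDARG00000005645), which in mammals tunes the response of commissural axons to Slit before they cross the midline, had 22, 38 and 34 counts in the mutants against 8, 10 and 4 in wild type. All mutants exceeded all wild types, at counts that were small throughout. The level was 0.868 ± 0.258 CPM in mutants against 0.189 ± 0.0817 CPM in wild type (SD, n = 3 each), and the log2 fold change was 2.18 (standard error 0.49, 95% interval 1.05 to 3.31, edgeR adjusted p = 0.0184). The call on *robo3* was the least firm, being lost without mutant replicate 2 (edgeR adjusted p = 0.0608), without mutant replicate 3 (0.0684) and when wild-type replicate 6 was dropped (0.0507), while the log2 fold change stayed between 1.87 and 2.47.

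*robo4* (ENSDARG00000009387), the receptor of vascular endothelium, lies beside *robo3* in GRCz12tu. It had 40, 47 and 70 counts in the mutants against 27, 34 and 45 in wild type. The groups overlapped, since wild-type replicate 6 was above mutant replicate 1. Its log2 fold change of 0.68 (standard error 0.36, 95% interval -0.14 to 1.50, edgeR adjusted p = 0.21) did not pass the threshold. The interval reaches neither the estimate of *robo3* nor those of *robo1* and *robo2*. It overlaps the intervals of *robo1* (1.25 to 4.21) and *robo3* (1.05 to 3.31) but not that of *robo2* (2.06 to 3.91). Differences between the Robo genes were not tested. Within a library, the ratio of 2 genes' counts is free of the scaling: *robo2* over *robo4* was 1.23, 1.91 and 1.2 in mutants against 0.37, 0.353 and 0.178 in wild type, and *robo1* over *robo4* was 3.02, 1.06 and 1.14 in mutants against 0.741, 0.0588 and 0.4 in wild type. For both ratios every mutant was above every wild type. *robo3* over *robo4* was likewise higher in mutants (0.55, 0.809 and 0.486) than in wild type (0.296, 0.294 and 0.0889). These ratios are made of the counts given above, so they are no separate evidence of a difference between the Robo genes, and they were not tested.

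Summed over the 4 Robo genes, there were 232, 225 and 268 counts in mutants against 65, 58 and 75 in wild type, or 6.66 ± 0.879 and 1.69 ± 0.183 CPM (SD, n = 3 each). Without *robo4* the sums were 192, 178 and 198 counts in mutants against 38, 24 and 30 in wild type. The 3 mutants thus held nearly equal sums although *robo1* and *robo2* took unequal parts of them.

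Of the 6 members that passed the filter, 4 had an edgeR adjusted p under 0.05, where 19.8% of all 16630 genes tested did. All 4 were higher in mutants, as were 11.0% of all genes tested, and in the same 4 every mutant was above every wild type, as in 21.3% of all genes tested. The median log2 fold change of the 6 was 2.31, beside 0.00 for all genes tested. *robo1*, *robo2* and *robo3* would not have passed the filter on their wild-type counts alone, and the filter so favours genes that are higher in mutants, which leaves these counts and the median a description. By log2 fold change the 4 ranked 341 (*robo2*), 383 (*robo1*), 454 (*slit3*) and 539 (*robo3*) among the 1834 genes higher in mutants.

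**Figure D2:**
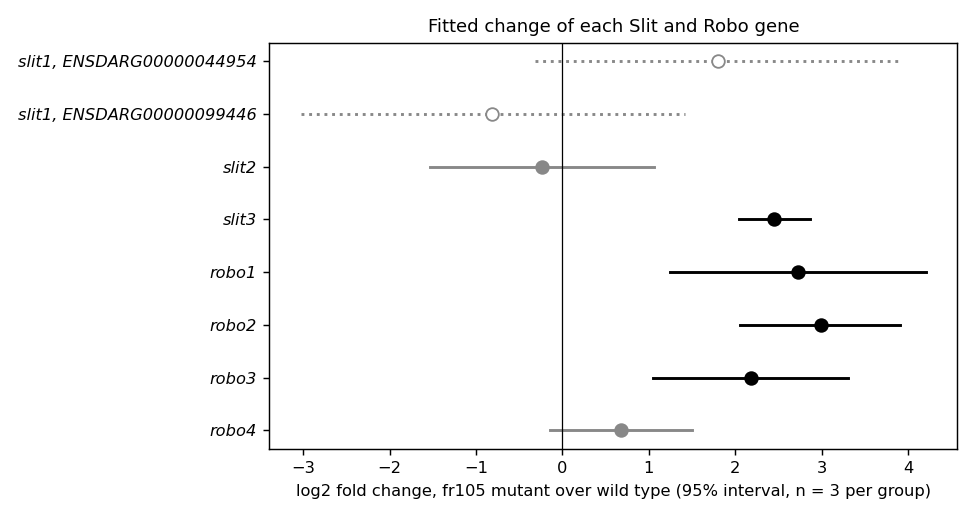
Fitted log2 fold change of fr105 mutants over wild type (horizontal axis) for the 8 Slit and Robo genes, with 95% intervals and n = 3 per group; black marks an adjusted p under 0.05, grey the other tested genes, and open dotted marks the 2 *slit1* rows from the fit with no filter. The intervals of *slit3*, *robo1*, *robo2* and *robo3* lie above 0, that of *slit3* being the narrowest (2.04 to 2.86), and those of *slit2*, *robo4* and both *slit1* rows include 0.

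For each of the 4 called members, the 3 genes with the most similar profile were taken from 15290 candidates by the root mean square difference of log2 CPM, centred on each gene's mean, over the 6 libraries. The nearest to *slit3* was *nrp1a*, a neuropilin co-receptor for semaphorins and vascular growth factor, at a difference of 0.09, with 1672, 1173 and 1542 counts in mutants against 264, 286 and 308 in wild type. It was followed by *coro1ca*, a coronin that binds actin (0.10), and *apbb2b* (0.13). The nearest to *robo1* were *ccdc85b* (0.15), the neutrophil chemokine gene *cxcl8a* (0.18) and *si:dkey-31f5.8* (0.19), all 3 of which were likewise lowest in wild-type replicate 5. The nearest to *robo2* were *ltbp1*, which encodes a binding protein of latent TGF-beta (0.09), *ftr82* (0.13) and *mn1b* (0.15), and the nearest to *robo3* were *lrfn4a* (0.05), the cadherin gene *cdh26.1* (0.11) and *NECTIN1* (0.11). Symbols in capitals are printed as the name table gives them for zebrafish IDs. Of these 12 genes, *NECTIN1* was the only one that did not pass the test (edgeR adjusted p = 0.0631). With 3 libraries per group, such a profile is mostly the difference between the groups.

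Downstream of Robo, 36 rows were matched to effector genes and 31 were tested, of which 6 rose, 3 fell and the median log2 fold change was 0.00. The 9 called are 9 of 31, beside 19.8% over all genes. *nck2a* would not have passed the filter on its wild-type counts alone, and the list was chosen with earlier results of these data known. This share is therefore a description. *srgap1a*, whose product binds the Robo tail, had 168, 132 and 158 counts in mutants against 14, 43 and 22 in wild type (log2 fold change 2.63, standard error 0.39, edgeR adjusted p = 0.00303). Its relative *srgap3* went the other way, with 116, 116 and 95 counts in mutants against 318, 334 and 231 in wild type (-1.34, standard error 0.20, edgeR adjusted p = 0.00346). The groups did not overlap for either gene.

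Of the NCK adaptors, which link receptor tails to actin regulators, *nck2a* had 22, 28 and 14 counts in mutants against 2, 4 and 2 in wild type (log2 fold change 3.03, standard error 0.55, edgeR adjusted p = 0.00762). The more strongly counted *nck2b* rose by less, with 776, 868 and 906 counts in mutants against 707, 572 and 510 in wild type (log2 fold change 0.61, standard error 0.16, edgeR adjusted p = 0.0344). The call on *nck2b* was lost without mutant replicate 2 (edgeR adjusted p = 0.0792), without mutant replicate 3 (0.116), and when wild-type replicate 5 (0.0928) or 6 (0.0798) was dropped. *nck2b* is the ninth called gene, past the 8 of the naming rule, and was named after its value was seen. In the Ena/VASP family of actin elongators, *evla* fell from 850, 891 and 768 counts in wild type to 336, 253 and 254 in mutants (log2 fold change -1.48, standard error 0.14, edgeR adjusted p = 0.000325), and *vaspb* rose (0.76, standard error 0.13, edgeR adjusted p = 0.00559). *rac1a*, a small GTPase that acts on actin (1.12), and *abl2*, a tyrosine kinase that acts on Robo (0.95), rose. *PAK1*, a kinase that binds active Rac, fell by 1.30 on the log2 scale (edgeR adjusted p = 0.034), a call that was lost in 5 of the 6 fits that left out a library. The summed effector level was 6245 to 7447 CPM in mutants against 6062 to 6931 CPM in wild type, which overlap.

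Among genes whose products meet Slit or Robo at the cell surface or act beside them in guidance, 23 rows were matched and 14 tested, of which 4 rose and 4 fell, with a median log2 fold change of -0.06. The 8 called are 8 of 14, beside 19.8% over all genes. *FLRT1* would not have passed the filter on its mutant counts alone, and the list was chosen with earlier results of these data known. This share is therefore a description. The metalloproteinase gene *mmp14b* had 10962, 8704 and 6841 counts in mutants against 664, 651 and 746 in wild type (log2 fold change 3.78, standard error 0.16, edgeR adjusted p = 1.0e-05). *mmp14a* rose as well, from 20, 24 and 30 counts in wild type to 130, 140 and 62 in mutants (2.25, edgeR adjusted p = 0.00451). All mutants were above all wild types for both.

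The chemokine gene *cxcl12a* and *cxcr4a*, a copy of the CXCR4 receptor gene, moved in opposite directions. Which receptor copy responds to *cxcl12a* was not tested. In mammalian leukocytes Slit is known to dampen the response to this chemokine. *cxcl12a* had 2414, 1964 and 1586 counts in mutants against 280, 539 and 490 in wild type (log2 fold change 2.28, standard error 0.24, edgeR adjusted p = 0.000552). *cxcr4a* had 634, 504 and 376 counts in mutants against 4594, 5412 and 3642 in wild type (-3.09, standard error 0.21, edgeR adjusted p = 7.3e-05). Neither pair of groups overlapped. The other receptor copy, *cxcr4b*, was named after its value was seen and held far more counts than *cxcr4a*. It had 24842, 33331 and 29092 counts in mutants against 36137, 63896 and 44219 in wild type. This gene did not pass edgeR's test (-0.62, standard error 0.23, edgeR adjusted p = 0.0897, DESeq2 adjusted p = 0.0309). The other 4 calls were less firm: *FLRT1* (-2.37), which encodes a membrane protein whose family binds Robo, *neo1a* (1.35), a netrin receptor gene related to DCC, the sheddase gene *adam10b* (-0.78) and *DAG1* (-0.52), whose product dystroglycan binds Slit in mouse. Each was lost in 4 or more fits that left out a library, and leaving out mutant replicate 1, mutant replicate 3 or wild-type replicate 5 brought the count of called partners from 8 to 4, and leaving out mutant replicate 2 brought it to 5. The netrin receptor row *DCC* and the netrin row *ntn2* were at 0 in every library.

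The genes for heparan sulfate proteoglycans and the enzymes that build their chains, which assist Slit binding, gave 26 rows and 18 tested genes. Of these 4 of 18 were called, a share near the 19.8% over all genes, so the count is no result about the list. All 4 were higher in mutants, and the median log2 fold change of the list was 0.11. *agrn*, which encodes the basement membrane proteoglycan agrin, had 179, 175 and 230 counts in mutants against 36, 14 and 14 in wild type (log2 fold change 3.28, standard error 0.40, edgeR adjusted p = 0.00116). The syndecan gene *sdc4* had 12841, 7519 and 5937 counts in mutants against 2387, 979 and 909 in wild type (2.69, standard error 0.43, edgeR adjusted p = 0.00445). In both cases all mutants were above all wild types.

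The glypican gene *gpc4* rose by 1.52 (standard error 0.27, edgeR adjusted p = 0.00737) and *hs6st2*, a sulfotransferase gene, by 0.94 (standard error 0.10, edgeR adjusted p = 0.000679). The 4 calls were kept with each library left out. One of the sulfotransferase rows, *NDST1* (ENSDARG00000103606), stood below wild type in every mutant without passing the test (log2 fold change -0.33, edgeR adjusted p = 0.0918) and was the only lower gene of the list with an unadjusted p under 0.05; it was picked after its value was seen. The summed level of the list was 341 to 500 CPM in mutants against 161 to 196 CPM in wild type, and without *sdc4* it was 164 to 175 CPM against 134 to 162 CPM, so most of the gap lay in that gene.

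**Figure D3:**
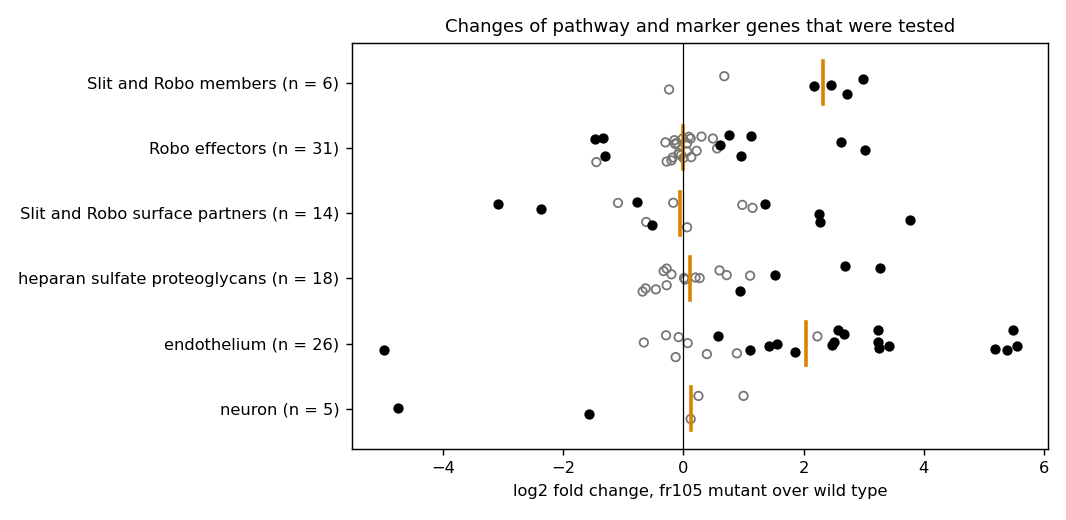
Log2 fold change of fr105 mutants over wild type (horizontal axis) for each tested gene (1 point) of the Slit and Robo members, 3 pathway lists, and the endothelial and neuron marker lists; filled points passed an adjusted p of 0.05, open points did not, bars mark medians and vertical jitter carries no value. Effectors and surface partners scatter on both sides of 0 (medians 0.00 and -0.06), the members and the endothelial genes mostly lie above it (medians 2.31 and 2.04).

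Cell types, only some of them known to make Slit or Robo, were followed by marker lists. Of 19 rows matched to neuron genes, 7 had at most 3 counts in every library. Among these 7, the defining marker *ELAVL3* and 1 row of *SNAP25* were the 2 at 0 throughout. The summed neuron level was 4.75 to 5.92 CPM in mutants against 5.24 to 6.68 CPM in wild type, which overlap, and of the genes tested *sypa* (-4.75), a gene of synaptic vesicles, fell in edgeR's test. *sypa* had 0, 0 and 2 counts in mutants against 14, 26 and 28 in wild type. It would not have passed the filter on its mutant counts alone, so its fall is a description. The neurofilament gene *NEFL*, which gave the largest part of the neuron sum and did not pass the test, had 129, 118 and 73 counts in mutants against 104, 81 and 101 in wild type. The median log2 fold change of the tested neuron genes was 0.12, and the part of neurons in the Slit and Robo result was not tested. A further list joined the floor plate, midline cells that secrete Slit, with radial glia. Its 11 rows summed to 14.9 to 21.6 CPM in mutants against 7.58 to 21.7 CPM in wild type. Nearly all of that sum came from 1 row of *FABP7* (ENSDARG00000007697), with 12.5 to 20 CPM in mutants and 5.9 to 19.9 CPM in wild type. In every library 5 rows had at most 3 counts, 2 of these being at 0 throughout. Of 4 genes tested 0 were called by edgeR, 0 by DESeq2 and 0 at an unadjusted p under 0.05. Over all genes edgeR called 19.8%, so with 4 genes the count is no result about the list.

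Endothelial markers were mostly higher in mutants, as were *slit3*, *robo1*, *robo2* and *robo3*. Of 26 endothelial genes tested, 17 rose and 1 fell, with a median log2 fold change of 2.04. Of all 28 rows, tested or not, 21 had every mutant above every wild type. Over all genes tested, 19.8% were called, 11.0% were called higher and 21.3% had every mutant above every wild type. The 4 largest rises were those of *esama* (5.55), *sox7* (5.48), *vwf* (5.39) and *etv2* (5.19), which encode a junction protein, a transcription factor of early vessels, von Willebrand factor and a transcription factor that specifies endothelium. *esama* had 317, 247 and 243 counts in mutants against 14, 2 and 2 in wild type. Several genes of the list, among them *esama*, *sox7* and *vwf*, would not have passed the filter on their wild-type counts alone. The counts and the median of this list are therefore a description. The fall was that of *aplnra* (-4.99), an apelin receptor gene with 0, 2 and 0 counts in mutants against 26, 28 and 26 in wild type, named after its value was seen. *aplnra* would not have passed the filter on its mutant counts alone. No endothelial row was at 0 in all libraries, and the summed level was 686 to 755 CPM in mutants against 577 to 657 CPM in wild type. Most of that sum came from *FLI1* (mean 170 CPM in mutants, 162 CPM in wild type), *fli1b* (166 and 203 CPM) and *TIE1* (99.4 and 109 CPM). These genes were picked after their values were seen and did not pass the test, so the sum says little about the genes that rose. Several listed genes are also transcribed in blood cells, and *robo4*, the Robo gene of endothelium, did not pass the test. The part of endothelial cells in the Slit and Robo result was not tested.

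The fibroblast and mural cell list also stood higher, at 67.3 to 81.6 CPM in mutants against 23.6 to 30.3 CPM in wild type, with 1 of its 17 rows (*LUM*) at 0 in all libraries. Of 14 genes tested, *cxcl12a*, which is also among the surface partners and gives 45.4 to 63 CPM of the mutant sums, *col1a1a* (2.22) and *COL1A2* (1.54) rose and *rgs5b* (-1.38) fell, with a median of 1.04. These 4 of 14 calls stand beside 19.8% over all genes, and DESeq2 called 7 of the list. They are a description, since *col1a1a* would not have passed the filter on its wild-type counts alone. Without *cxcl12a* the sums were 18.6 to 21.9 CPM in mutants against 12.2 to 16.3 CPM in wild type. The part of fibroblasts and mural cells in the Slit and Robo result was not tested either. Of the kidney lists, 10 podocyte rows summed to 5.35 to 6.24 CPM in mutants against 1.97 to 5.64 CPM in wild type, with 1 rise (*ptpro*, 1.50) among 4 tested. The 19 tubule rows summed to 319 to 406 CPM in mutants against 376 to 491 CPM in wild type. Among 16 tested there was 1 fall (*atp1b1a*, -0.41), while their median log2 fold change was 0.42. Most of the tubule sum came from *atp1b1a* (151 to 157 CPM in mutants, 183 to 222 CPM in wild type) and *slc20a1a*. The latter, picked after its value was seen, had 113 to 216 CPM in mutants and 106 to 220 CPM in wild type. Skeletal muscle rows summed to 3.48 to 4.75 and 2.69 to 6.31 CPM, and the single gene tested was not called. The kidney calls, 1 of 4 podocyte and 1 of 16 tubule genes, stand beside 19.8% over all genes. DESeq2 called 2 genes in each kidney list. Over all genes DESeq2 called 4193, where edgeR called 3291.

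In the blood lists, 4 of 12 stem and progenitor genes rose: *itga2b* (2.53), an integrin gene of thrombocytes and stem cells, the thrombopoietin receptor gene *mpl* (0.90), *meis1b* (0.83) and *tal1* (0.73). Their summed level overlapped between groups, at 936 to 1012 CPM in mutants against 742 to 1063 CPM in wild type, and the median of the list was 0.21. These 4 of 12 stand beside the 11.0% of all genes that rose. Of 7 erythrocyte genes 1 rose (*gata1a*, 0.90), with sums of 24147 to 31211 and 12012 to 27486 CPM. Of 7 neutrophil genes 1 rose (*mpx*, 0.98), with sums of 39782 to 49960 CPM in mutants against 22758 to 37016 CPM in wild type, which did not overlap. Over all genes 11.0% rose, so by edgeR's calls 1 of 7 is near the background for both lists. Every mutant was above every wild type in 5 of the 7 erythrocyte genes and 2 of the 7 neutrophil genes, beside 21.3% of all genes tested. The median log2 fold changes were 0.81 for the erythrocyte list and 0.34 for the neutrophil list. DESeq2, which called 4193 genes in all, called 5 of the 7 erythrocyte genes and 1 of the 7 neutrophil genes. The part of neutrophils in the Slit and Robo result was not tested.

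**Figure D4:**
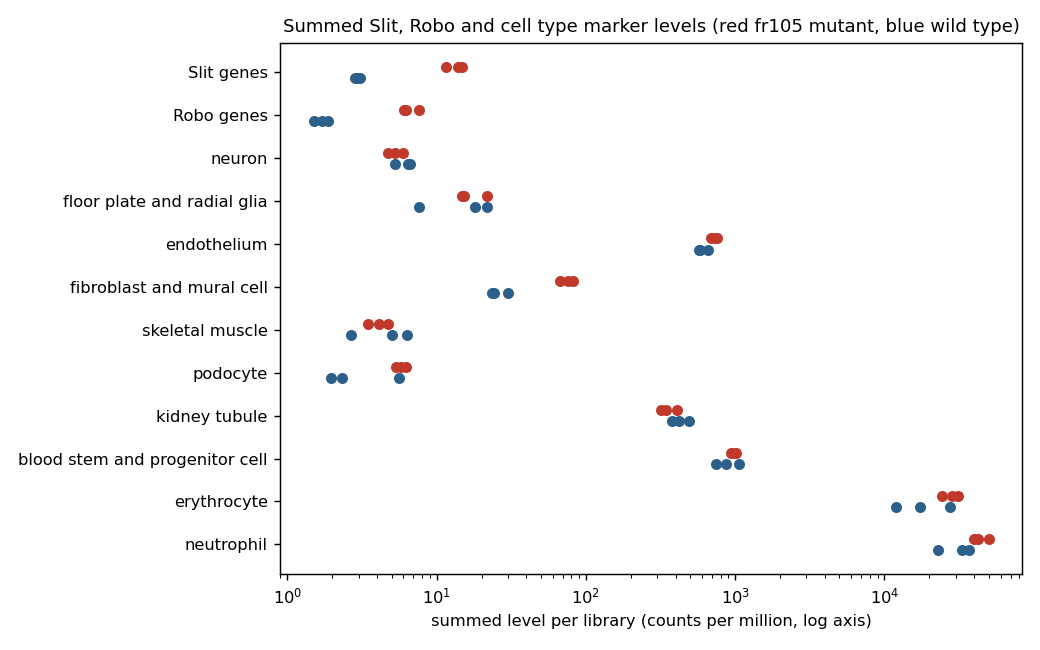
Summed level per library in CPM (horizontal log axis) of the Slit genes, the Robo genes and 10 cell type marker lists, with 1 point per library (fr105 mutants in red, wild type in blue). Slit (mean 13.4 against 2.95) and Robo sums (6.66 against 1.69) separate the groups, as do the endothelial, fibroblast and neutrophil lists, while neuron, muscle and kidney lists overlap.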

How the data were processed

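RNA-seq libraries of 3 fr105 homozygotes and 3 wild-type siblings, grouped by the genotype in their labels, were analysed. The authors aligned stranded, poly-A selected paired-end reads to Ensembl Zv10 (GRCz10) with STAR 2.5.2b-1 and counted them per gene with featureCounts 1.6.0.1; a strand setting is not given in the sources used here. The table they deposited holds unnormalized counts of 32105 genes. Authors' own comparisons were not used. IT325 libraries were not analysed here.

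Counts were tested with edgeR 4.0.16 (R 4.3.3), using the TMM method for scaling, the default low-count filter (a minimum of 10 counts, scaled to library size, in 3 libraries and of 15 in total), a quasi-likelihood fit on genotype alone and a two-sided F test, with Benjamini-Hochberg adjustment over 16630 genes and a threshold of 0.05. Permutation tests and the search for nearest profiles used log2 CPM with 0.5 added. Precision is limited by 3 libraries per group and, for low genes, by counting error. The alternatives tried were scaling by RLE, by upper quartile or by library size alone, the Wald test of DESeq2 1.42.0, leaving the filter out or raising it to a mean of 50 counts, robust fitting, halved counts, stricter thresholds (adjusted p of 0.01, or a log2 change of 1 or more in size), and dropping one library at a time. The fit was tested on simulated counts. Tables and figures used Python 3.11.15, pandas 2.3.3, SciPy 1.17.1 and matplotlib 3.10.9.

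A table of gene names and the supplementary gene tables (used for symbols only) gave 26310 genes a symbol, matched without regard to case. Gene neighbours come from GRCz12tu, another build, so no coordinates or sequences are given. The members and lists were chosen with earlier results of these data known. Beside the 8 members and *ikzf1*, the genes named are the called genes of each list (at most 8 per pathway list and 4 per marker list, by absolute log2 fold change) and the 3 nearest profiles of each called member, among genes with a symbol and a mean of at least 10 counts. A called gene of the neuron list is not reported here.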

Additional observations from a re-analysis of the deposited data

How the results depend on the processing

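Of 78 alternative fits of the 6 tested members, 72 kept the direction and the side of the threshold. Over the fits that dropped 1 library, log2 fold changes ranged from 2.23 to 3.16 for *robo1*, 2.83 to 3.24 for *robo2*, 1.87 to 2.47 for *robo3*, 0.38 to 0.87 for *robo4*, -0.60 to 0.06 for *slit2* and 2.38 to 2.56 for *slit3*. The value of 0.06, without mutant replicate 3, was the only reversal, in a gene that was not called. Leaving out libraries gave 2 to 4 called members (2 without mutant replicate 3) and 1927 to 2837 called genes, from 3291 (1938 and 1927 when mutant replicates 1 and 3 were dropped, 2152 when wild-type replicate 5 was). An adjusted p of 0.01 left 2 members and 1399 genes, and requiring a log2 change of 1 or more in size left 1810 genes. A mean of at least 50 counts left 1 member, since only *slit3* was then tested. DESeq2, the other scalings, the robust fit, halved counts and no filter each called the same number of members, 4. Among the list genes, the calls on *PAK1*, *FLRT1*, *neo1a*, *adam10b*, *DAG1*, *col1a1a*, *COL1A2*, *rgs5b*, *ptpro*, *atp1b1a*, *tal1*, *gata1a* and *mpx* were each lost when mutant replicate 1 was dropped, and all of these but *COL1A2* in at least 1 other such fit. DESeq2 called *cxcr4b*, which edgeR did not. Counts of 20 or fewer per library, as in *slit2*, both *slit1* rows and the wild-type *robo1*, *robo2* and *robo3* values, limit what could be detected. No paired analysis was possible because mutants are numbered 1 to 3 and wild types 4 to 6, so the groups share no replicate number.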
